A study of Rattus norvegicus with 12 samples.

Results

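The SLC25 carriers of rat liver were followed here in hepatocytes taken from living rats and from rats 4, 16 or 30 h after death. The family was defined as the probe sets of a microarray whose annotation holds 1 gene entry with a symbol that begins with Slc25a, leaving out Slc25a13, Slc25a15 and Slc25a20, and it held 49 of the 31042 probe sets analysed, for 37 of the 14217 genes with a symbol of their own. Of these genes 27 had 1 probe set, 8 had 2 and 2 had 3. The rule uses gene names and no measured value. The 2 probe sets of Slc25a51, the mitochondrial NAD carrier, have 2 gene entries each under that 1 symbol and are therefore in none of the counts; 1 of them (1386478_at) was called higher at 30 h, with a difference of 0.56 (SE 0.13, limma adjusted p = 0.00838). Slc25a47, a liver-enriched carrier, and 8 other genes of a list of 46 family members had no probe set under this rule and are not analysed here.

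SLC25 proteins are carriers of the inner mitochondrial membrane, apart from a few members found in peroxisomes or in the outer membrane. They exchange ADP for ATP, bring in phosphate, and move citrate, malate, oxoglutarate, amino acids, cofactors and iron between the cytosol and the matrix. In hepatocytes they feed the respiratory chain and link it to gluconeogenesis, fatty acid synthesis, the urea cycle and heme synthesis.

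Liver cells of Fischer 334 rats were released by collagenase perfusion and were not cultured before RNA was extracted. The controls were heart-beating donors, and the other groups were donors whose livers were perfused 4, 16 or 30 h after death. Each of the 4 groups had 3 arrays, labelled as biological replicates 1 to 3. Below, a heart-beating donor or an animal with a number stands for the replicate so labelled. The sources used here give neither the age and sex of the rats nor the manner of death nor the temperature at which the bodies were kept. Each value is a log2 signal from an Affymetrix array, and each of the 12 arrays stands for 1 labelled biological replicate. Levels of different probe sets cannot be ranked against each other, so only differences between groups for the same probe set are compared. In RNA from a cell suspension, fewer cells of a type and less RNA per cell cannot be told apart.

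Array-wide measures differed between the groups and touch every result below. The 3′ minus 5′ difference of the Gapdh control probe sets, which widens when RNA is shorter, lay between 0.307 and 0.452 in heart-beating donors, between 0.272 and 0.464 at 4 h, between 0.854 and 1.25 at 16 h and between 1.79 and 2.31 at 30 h. Hepatocyte markers were bright in every group, with a mean over 7 genes of 12.6 to 12.7 in heart-beating donors and 12.4 to 12.6 at 30 h. Of these 7 genes Asgr1 (-1.14) and Apoa1 (-0.28) were called lower at 30 h and Hnf4a (0.76) higher. The mean over 7 erythroid genes spanned 7.06 to 7.21 in heart-beating donors and 7.10 to 8.07 at 4 h. It spanned 7.85 to 8.07 at 16 h, with 3 called higher, and 7.85 to 8.42 at 30 h, with 4 called higher. The mean over 7 Kupffer cell genes spanned 8.34 to 8.43 in heart-beating donors and 8.26 to 8.73 at 4 h. It spanned 7.74 to 8.04 at 16 h, with 3 called lower, and 7.31 to 7.68 at 30 h, with 6 called lower. At 16 h 3 of 5 liver endothelium genes, Lyve1, Stab2 and Fcgr2b, were called higher, and the mean over the 5 spanned 8.41 to 8.61 in heart-beating donors, 9.04 to 9.10 at 16 h and 8.37 to 8.94 at 30 h, when 1 was called higher. At 30 h 2 of 5 stellate cell genes, Pdgfra and Colec11, were called higher, with a mean over the 5 of 7.06 to 7.47 in heart-beating donors and 7.55 to 7.83 at 30 h. Hnf4a (0.61) and the stellate cell gene Colec11 (0.38) were also called higher at 16 h. These marker counts stand beside 3.18% of all probe sets called higher and 1.49% called lower at 16 h. At 30 h 10.4% of all probe sets were called higher and 9.36% lower. The part of RNA length and of other cell types in the results was not tested.

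A probe set is called here when its Benjamini-Hochberg adjusted p, from limma over all 31042 probe sets, lies below 0.05. At 4 h after death limma called 0 of the 49 carrier probe sets, against 0.0226% of all probe sets (0.00966% higher and 0.0129% lower). An unadjusted p below 0.05 was found for 3 of the 49 and for 1637 of all 31042 probe sets. The median log2 difference of the family at 4 h was -0.0055, and that of all probe sets was 0.0015. At 16 h 5 carrier probe sets differed from the heart-beating donors, which is 10.2% of the family against 4.67% of all probe sets. Of the 5, 4 were higher, against 3.18% of all probe sets called higher, and 1 was lower, against 1.49%. This split became 4 and 0 with each array centred on its median and 3 and 2 after a further quantile normalization. Among all probe sets called at 16 h the higher share was 68.2%, and it was 57.6% after the quantile step. At 16 h 16 members, or 32.7%, did not overlap the heart-beating arrays, against 28.7% of all probe sets. Without heart-beating donor 3 the calls at 16 h fell to 1, beside 1.52% of all probe sets. Without heart-beating donor 1 they fell to 2 (3.16% of all). They fell to 3 without 4 h animal 2 (4.06% of all), 16 h animal 1 (2.07%) or 16 h animal 2 (1.44%).

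At 30 h 13 carrier probe sets of 12 genes were called, which is 26.5% against 19.7% of all probe sets. Of these, 6 were higher, with 10.4% of all probe sets called higher, and 7 were lower, with 9.36% of all called lower. The family's shares over all probe sets thus lay somewhat above the background, with no test of the difference. Among the upper 50% of probe sets by mean signal they did not. There 10 of 33 members were called at 30 h, against 31.9% of all, and 3 of 33 at 16 h, against 9.72%. Differences at 30 h ran from -1.02 to 0.93 on the log2 scale, the median was 0.030 against 0.0082 for all probe sets, and 27 members lay above 0 and 22 below it. The median size of a difference without its sign was 0.171 for the family and 0.116 for all probe sets. Carriers of the family therefore moved in both directions at 30 h. The 3 arrays at 30 h did not overlap the 3 heart-beating arrays for 21 of the 49 members, or 42.9%, against 33.5% of all probe sets.

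**Figure D1:**
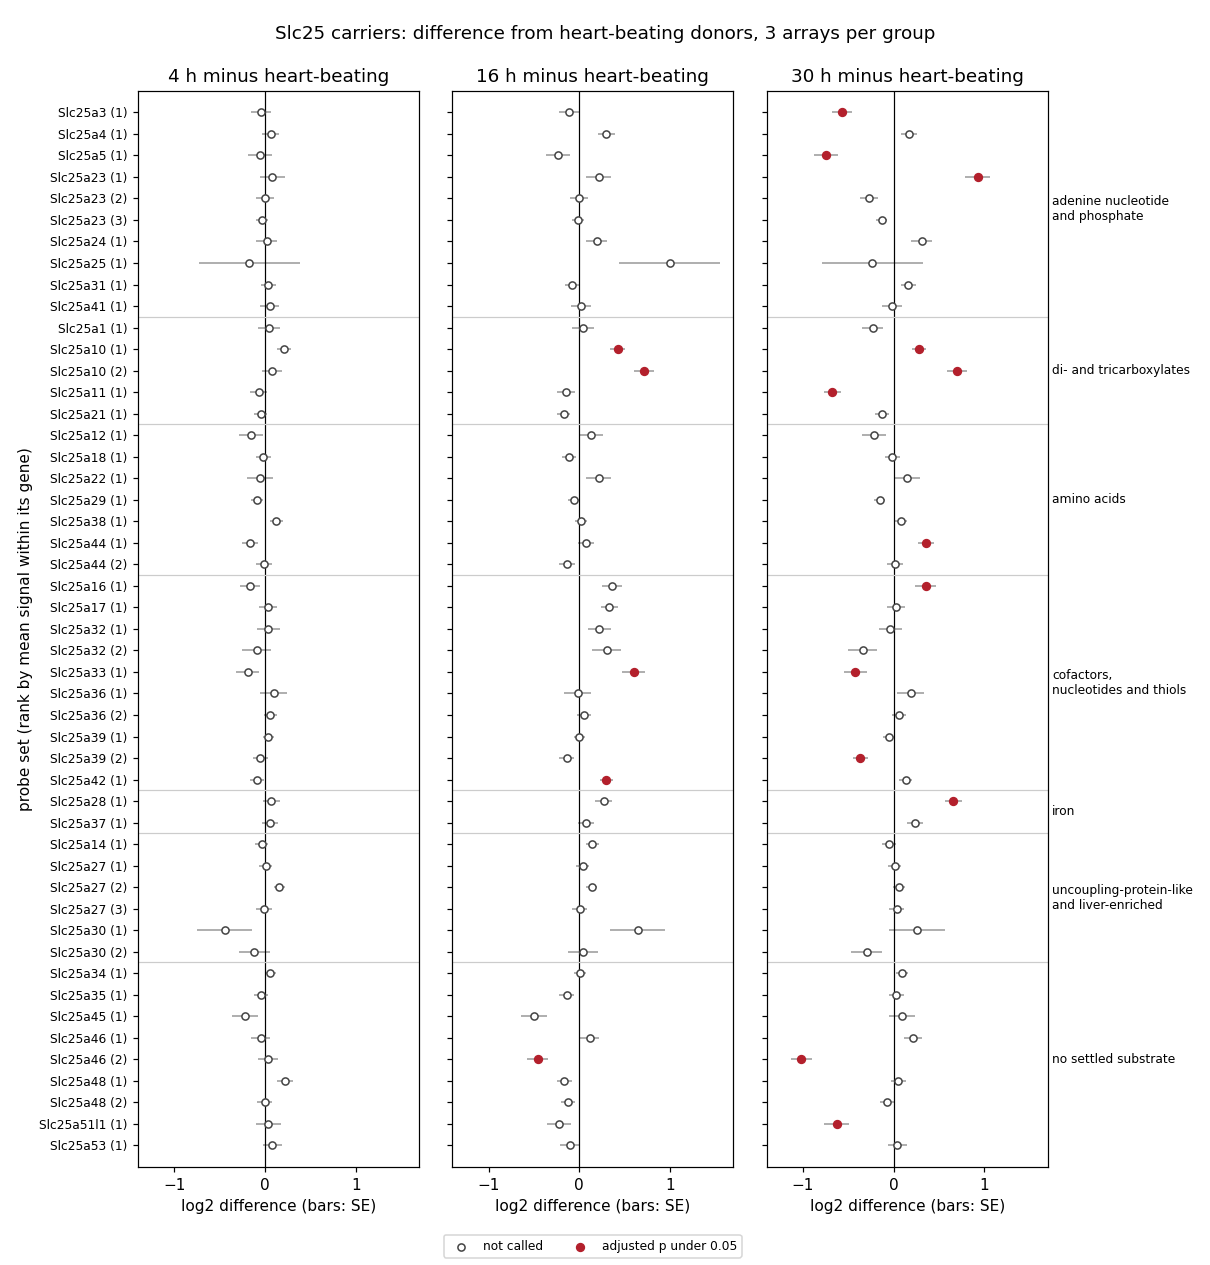
Log2 difference from the heart-beating donors (x axis) for every Slc25 probe set (y axis, ordered by role) at 4, 16 and 30 h, with bars for the SE and filled points for those called at limma adjusted p under 0.05. Calls are absent at 4 h, number 5 at 16 h and 13 at 30 h, and at 30 h they lie on both sides of 0 within 3 of the 7 role groups.

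**Figure D2:**
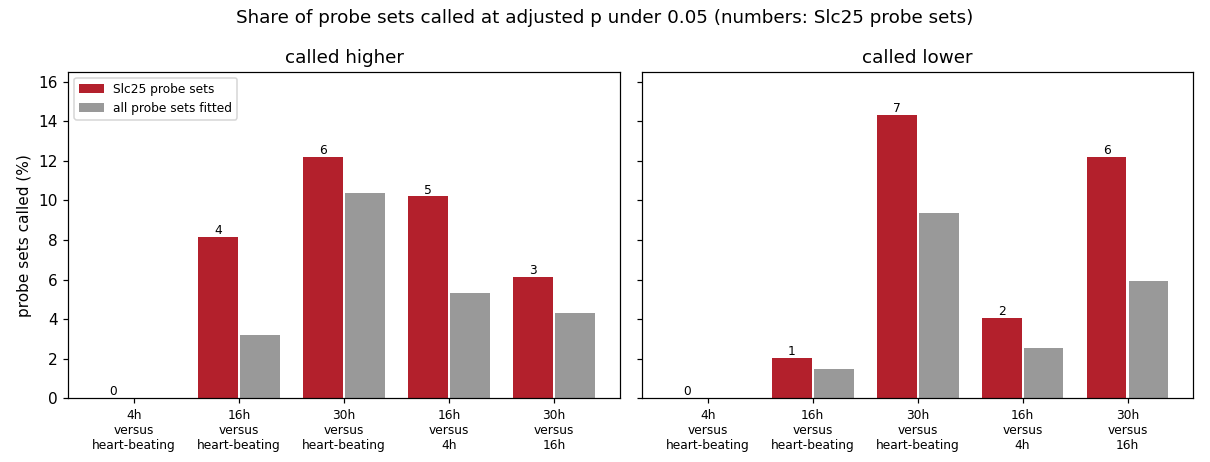
Share of probe sets (y axis, percent) called higher (left) or lower (right) in each comparison (x axis), for the Slc25 probe sets in red and all fitted probe sets in grey, with the number of Slc25 probe sets above each red bar. At 30 h against heart-beating donors 6 carriers were called higher and 7 lower.

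With the Gapdh 3′ minus 5′ difference as a covariate, limma called 0 of the 49 at 30 h and 0 of all 31042 probe sets, with 4 members and 4438 of all at an unadjusted p below 0.05. In that fit 7 of the 13 called probe sets changed sign. The covariate runs with the groups, so time after death and RNA length cannot be told apart by this fit.

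Among the carriers of adenine nucleotides and phosphate, 8 genes with 10 probe sets, 2 probe sets were called lower and 1 higher at 30 h, where 9.36% of all probe sets were called lower and 10.4% higher. At 4 and 16 h limma called none of the 10, with 0 and 1 at an unadjusted p below 0.05. Of all probe sets 0.0226% and 4.67% were called at these times. Slc25a5, the widely expressed ADP/ATP carrier, and Slc25a3, the phosphate carrier that supplies ATP synthase, fell together at 30 h, while a probe set of Slc25a23, a calcium-regulated ATP-Mg/phosphate carrier, rose.

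The Slc25a5 signals were 12.29, 12.28 and 12.41 in the heart-beating donors, 12.19, 12.40 and 12.20 at 4 h, 12.11, 12.07 and 12.08 at 16 h and 11.19, 11.72 and 11.83 at 30 h. All 3 arrays at 30 h lay below every other array, and 30 h animal 1 was the lowest. The mean was 12.32 ± 0.072 (SD, n = 3) in heart-beating donors and 11.58 ± 0.35 at 30 h, a difference of -0.74 on the log2 scale (SE 0.13, limma adjusted p = 0.00159), or 1.67-fold lower. At 16 h the difference was -0.24 (SE 0.13, limma adjusted p = 0.353). Between 16 and 30 h it was -0.51 (SE 0.13, limma adjusted p = 0.0271), and -0.31 without 30 h animal 1. That later step was no longer called without 16 h animal 1 (-0.49), 2 (-0.51) or 3 (-0.51), while the call at 30 h against heart-beating donors held without each of the 12 arrays in turn.

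The promoter of Slc25a5 is shown because the gene is the carrier with the largest fall at 30 h against heart-beating donors among genes with a single probe set. It is printed beside that of Slc25a10, a carrier that rose. Capitals mark GC boxes, the motif GGGCGG or its reverse complement.
Slc25a5 chrX:120897366-120897615, strand +: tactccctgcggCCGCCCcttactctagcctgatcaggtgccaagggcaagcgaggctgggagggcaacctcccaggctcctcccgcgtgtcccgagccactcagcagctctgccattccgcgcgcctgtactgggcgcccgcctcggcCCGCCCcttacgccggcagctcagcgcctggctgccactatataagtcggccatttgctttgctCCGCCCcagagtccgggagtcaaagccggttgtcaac
Slc25a10 chr10:106264146-106264395, strand +: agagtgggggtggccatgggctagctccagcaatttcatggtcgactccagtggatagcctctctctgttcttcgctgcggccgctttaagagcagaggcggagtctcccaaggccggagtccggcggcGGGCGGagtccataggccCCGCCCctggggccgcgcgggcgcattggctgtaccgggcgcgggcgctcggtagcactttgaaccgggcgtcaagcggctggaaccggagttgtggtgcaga
These are the 250 bases before the RefSeq start of each gene in build GRCr8, 5′ to 3′ on the gene's strand. GC boxes were found 3 times for Slc25a5 and 2 times for Slc25a10. These 2 promoters were picked by the direction of change of their genes, and a match describes the letters in this window only. The motif, searched on both strands, was found in 20 of the 31 carrier promoters that the RefSeq table held, or 64.5%, against 30.5% of 33469 rat promoters. The median share of G and C was 58.8% for the carriers and 51.2% for all.

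Slc25a3 showed the same order of groups. Its signals were 10.68, 10.65 and 10.73 in the heart-beating donors, 10.66, 10.74 and 10.52 at 4 h, 10.63, 10.63 and 10.46 at 16 h and 9.82, 10.21 and 10.32 at 30 h. The 30 h arrays lay below all others, with 30 h animal 1 again the lowest. The difference at 30 h was -0.57 on the log2 scale (SE 0.11, limma adjusted p = 0.00309), or 1.48-fold lower. At 16 h the difference was -0.11. Between 16 and 30 h it was -0.45 (SE 0.11, limma adjusted p = 0.0206), a call that was lost without 16 h animal 1 (-0.43) and without 16 h animal 2 (-0.42). 30 h animal 1 also had the widest Gapdh difference of the 12 arrays, 2.31. With that difference as a covariate the 30 h estimates turned to 0.64 (SE 0.30) for Slc25a5 and 0.39 (SE 0.32) for Slc25a3, neither of them called.

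Slc25a4, the ADP/ATP carrier of heart and muscle, did not pass the test. Its signals were 7.00, 7.14 and 7.30 in the heart-beating donors, 7.21, 7.10 and 7.31 at 4 h, 7.40, 7.54 and 7.39 at 16 h and 7.36, 7.42 and 7.16 at 30 h. The 16 h arrays lay above those of the heart-beating donors, with a difference of 0.30 (SE 0.092, limma adjusted p = 0.0893), and the 30 h arrays overlapped them, with 0.17 (SE 0.092, limma adjusted p = 0.23). The within-array difference of Slc25a5 minus Slc25a4 changed by -0.53 at 16 h and by -0.91 at 30 h from that in heart-beating donors. All values of this difference at 16 and 30 h lay below those of the heart-beating donors, and the pair was chosen after its values were seen, so no test is given.

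The brightest Slc25a23 probe set (1379073_at) gave 8.88, 8.48 and 8.52 in the heart-beating donors, 8.68, 8.57 and 8.87 at 4 h, 8.82, 8.92 and 8.79 at 16 h and 9.79, 9.65 and 9.24 at 30 h. The 3 arrays at 30 h were above all 9 others. The rise was 0.93 on the log2 scale (SE 0.14, limma adjusted p = 0.00053), or 1.90-fold higher, and 0.71 (SE 0.14, limma adjusted p = 0.00649) from 16 h. With the Gapdh covariate its 30 h estimate turned to -0.10 (SE 0.44), not called. The other Slc25a23 probe sets were not called and lay the other way, at -0.27 (1377550_at, limma adjusted p = 0.080) and -0.13 (1379169_at, limma adjusted p = 0.189). For Slc25a23 the direction therefore depended on the probe set.

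Slc25a25, another calcium-regulated ATP-Mg/phosphate carrier, varied most within its group. Its signals were 8.44, 11.03 and 8.34 in the heart-beating donors, 8.75, 9.49 and 9.05 at 4 h, 10.47, 10.21 and 10.11 at 16 h and 9.33, 9.55 and 8.22 at 30 h. Heart-beating donor 2 was higher than all 11 other arrays, while the 3 arrays at 16 h lay above the other 2 heart-beating donors. The difference at 16 h, 1.00 (SE 0.56, limma adjusted p = 0.362), and that at 30 h, -0.23 (SE 0.56, limma adjusted p = 0.825), did not pass the test, beside a heart-beating SD of 1.52. Slc25a24, of the same calcium-regulated kind, gave 6.71, 6.68 and 6.71 in the heart-beating donors, 6.79, 6.58 and 6.79 at 4 h, 6.81, 6.87 and 7.00 at 16 h and 7.32, 6.94 and 6.76 at 30 h. Its 30 h arrays were above the heart-beating ones, with a difference of 0.31 (SE 0.12, limma adjusted p = 0.0831). Slc25a31, the germ cell ADP/ATP carrier, was dim, with 5.49, 5.51 and 5.39 in the heart-beating donors, 5.61, 5.44 and 5.44 at 4 h, 5.27, 5.35 and 5.54 at 16 h and 5.69, 5.51 and 5.68 at 30 h, and overlapped between groups. Slc25a41 differed by -0.014 at 30 h.

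**Figure D3:**
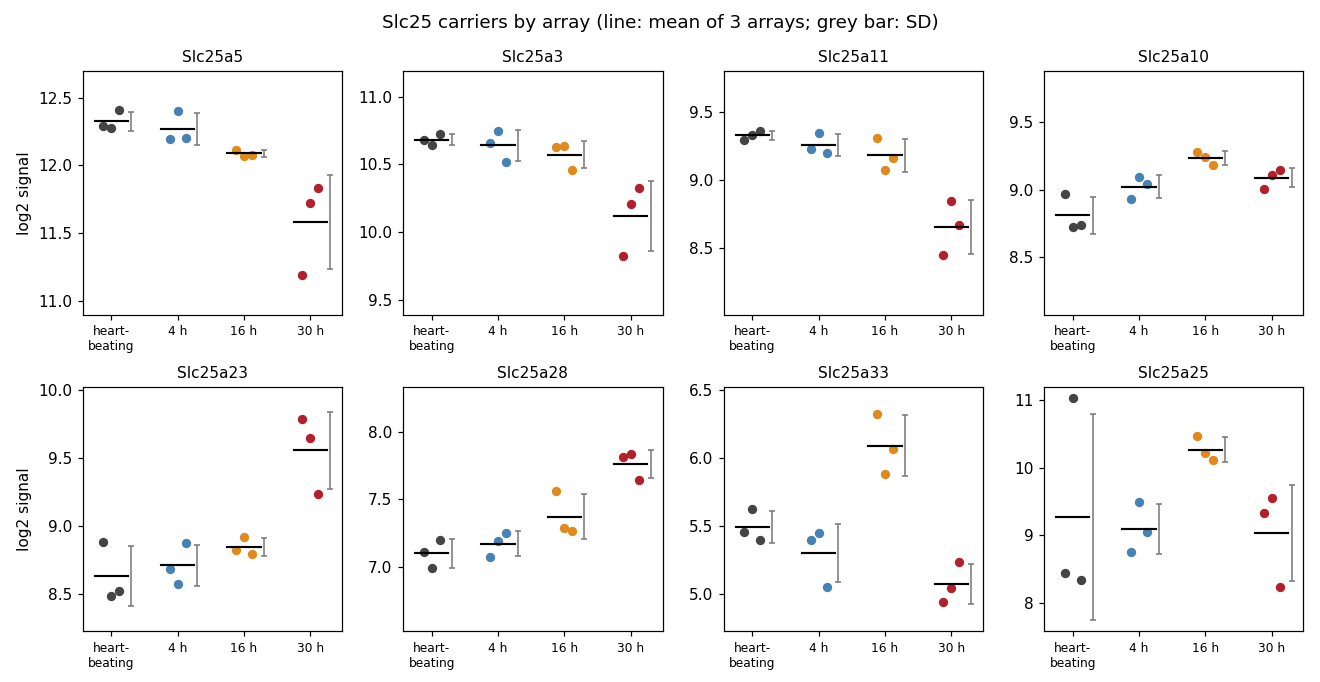
Log2 signal (y axis) on each of the 12 arrays for selected Slc25 probe sets, by group (x axis), with points for arrays, a line for the group mean and a grey bar for its SD (n = 3). The 30 h arrays of Slc25a5, Slc25a3 and Slc25a11 lie below all others, and the Slc25a33 group mean is highest at 16 h and lowest at 30 h.

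The carriers of di- and tricarboxylates, 4 genes with 5 probe sets, held the 2 probe sets of Slc25a10, both higher at 16 and 30 h, and Slc25a11, lower at 30 h, beside 4.67% of all probe sets called at 16 h and 19.7% at 30 h. Slc25a10, the dicarboxylate carrier, exchanges malate or succinate for phosphate, and Slc25a11, the oxoglutarate/malate carrier, is a component of the malate-aspartate shuttle.

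The brighter Slc25a10 probe set (1370020_at) gave 8.97, 8.72 and 8.74 in the heart-beating donors, 8.93, 9.09 and 9.04 at 4 h, 9.28, 9.24 and 9.18 at 16 h and 9.01, 9.11 and 9.14 at 30 h. The 16 h arrays were above all others, and the 30 h arrays were above the heart-beating ones. The differences were 0.42 on the log2 scale (SE 0.078, limma adjusted p = 0.00985) at 16 h and 0.28 (SE 0.078, limma adjusted p = 0.024) at 30 h. The call at 16 h was lost without heart-beating donor 3 (0.39), and that at 30 h without heart-beating donor 2 (0.23), heart-beating donor 3 (0.24), 30 h animal 2 (0.27) or 30 h animal 3 (0.25). The dimmer probe set (1383886_at) gave 6.41, 6.40 and 6.53 in the heart-beating donors, 6.68, 6.57 and 6.33 at 4 h, 7.39, 7.11 and 7.00 at 16 h and 7.13, 7.29 and 7.03 at 30 h. All 6 arrays at 16 and 30 h were above all 6 earlier arrays. It rose by 0.71 (SE 0.11, limma adjusted p = 0.00444) at 16 h and 0.70 (SE 0.11, limma adjusted p = 0.000834) at 30 h, calls that held without each of the 12 arrays in turn. Slc25a10 was thus higher by both probe sets, by different amounts. With the Gapdh covariate the dimmer probe set kept its direction, at 0.89 (SE 0.20, limma adjusted p = 0.064) at 16 h and 1.12 (SE 0.42, limma adjusted p = 0.276) at 30 h.

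Slc25a11 gave 9.30, 9.33 and 9.36 in the heart-beating donors, 9.23, 9.35 and 9.20 at 4 h, 9.31, 9.07 and 9.16 at 16 h and 8.45, 8.84 and 8.67 at 30 h. All other arrays lay above those at 30 h. The difference was -0.68 on the log2 scale (SE 0.094, limma adjusted p = 0.000356), or 1.60-fold lower, and -0.53 (SE 0.094, limma adjusted p = 0.00431) from 16 h. Both calls held without each array in turn, and with the Gapdh covariate the 30 h estimate was 0.27 (SE 0.24), not called. The within-array difference of Slc25a10 (1370020_at) minus Slc25a11 changed by 0.57 at 16 h and 0.95 at 30 h, a description with no test, since this pair too was chosen after its values were seen.

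Slc25a1, the citrate carrier that exports citrate for fatty acid synthesis, gave 9.82, 9.99 and 10.07 in the heart-beating donors, 9.88, 10.15 and 9.98 at 4 h, 9.89, 10.07 and 10.04 at 16 h and 9.46, 9.99 and 9.75 at 30 h. The groups overlapped, and the 30 h difference was -0.23 (SE 0.12, limma adjusted p = 0.215). Slc25a21, the oxodicarboxylate carrier, gave 6.79, 6.78 and 6.88 in the heart-beating donors, 6.70, 6.78 and 6.82 at 4 h, 6.57, 6.66 and 6.69 at 16 h and 6.71, 6.81 and 6.55 at 30 h, with a 30 h difference of -0.13 (SE 0.073, limma adjusted p = 0.271). Neither passed the test in any of the 5 comparisons.

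Of the 7 probe sets for 6 carriers of amino acids, 1 was called, and that at 30 h, where 19.7% of all probe sets were called. The brighter probe set (1373306_at) of Slc25a44, a carrier of branched-chain amino acids, gave 7.92, 7.87 and 7.87 in the heart-beating donors, 7.73, 7.83 and 7.61 at 4 h, 7.88, 7.96 and 8.04 at 16 h and 8.05, 8.39 and 8.30 at 30 h. Each 30 h array was above the 9 others. The rise was 0.36 on the log2 scale (SE 0.088, limma adjusted p = 0.0115), and the call held without each array in turn. The dimmer Slc25a44 probe set (1393178_at) gave 6.75, 7.12 and 6.76 in the heart-beating donors, 6.85, 6.90 and 6.85 at 4 h, 6.66, 6.79 and 6.77 at 16 h and 6.86, 6.90 and 6.93 at 30 h. Its 16 h arrays lay below all those at 4 and 30 h, the 30 h and heart-beating arrays overlapped, and its 30 h difference was 0.019 (SE 0.088, limma adjusted p = 0.917).

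Slc25a22, a glutamate carrier, gave 8.90, 9.38 and 8.86 in the heart-beating donors, 9.26, 8.99 and 8.74 at 4 h, 9.29, 9.32 and 9.18 at 16 h and 9.09, 9.20 and 9.31 at 30 h. The groups overlapped, with a 30 h difference of 0.15 (SE 0.14, limma adjusted p = 0.511). Slc25a38, the glycine carrier that supplies heme synthesis, gave 7.30, 7.17 and 7.28 in the heart-beating donors, 7.26, 7.47 and 7.39 at 4 h, 7.31, 7.30 and 7.19 at 16 h and 7.34, 7.32 and 7.33 at 30 h, and its 30 h difference was 0.078 (SE 0.069, limma adjusted p = 0.481). Neither glutamate nor glycine carrier was called. Slc25a29, a carrier of basic amino acids, gave 6.94, 6.99 and 6.96 in the heart-beating donors, 6.87, 6.86 and 6.90 at 4 h, 6.96, 6.84 and 6.93 at 16 h and 6.70, 6.82 and 6.91 at 30 h, with the 30 h arrays below the heart-beating ones and a difference of -0.15 (SE 0.065, limma adjusted p = 0.123). Slc25a12, the aspartate/glutamate carrier also called aralar, gave 6.18, 5.83 and 5.84 in the heart-beating donors, 5.55, 6.04 and 5.80 at 4 h, 5.99, 6.13 and 6.13 at 16 h and 5.67, 5.95 and 5.58 at 30 h. Its 30 h arrays lay below those at 16 h and overlapped those of the heart-beating donors, with a 30 h difference of -0.22 (SE 0.13, limma adjusted p = 0.287). The remaining glutamate carrier, Slc25a18, differed by -0.013.

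The carriers of cofactors, nucleotides and thiols, 7 genes with 10 probe sets, had calls in both directions. At 16 h 2 were higher than in heart-beating donors and 3 higher than at 4 h, and at 30 h 1 was higher and 2 lower. Of all probe sets 3.18% and 5.31% were higher in the first 2 of these comparisons, and 10.4% were higher and 9.36% lower at 30 h. The median difference of these 10 was 0.26 at 16 h and -0.0032 at 30 h, against -0.024 and 0.0082 over all probe sets.

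Slc25a33, a pyrimidine nucleotide carrier, moved up and then down. Its signals were 5.46, 5.62 and 5.40 in the heart-beating donors, 5.40, 5.45 and 5.05 at 4 h, 6.33, 5.89 and 6.07 at 16 h and 4.94, 5.04 and 5.23 at 30 h. The 16 h arrays were the highest of all and the 30 h arrays lay below all heart-beating ones. It rose by 0.60 on the log2 scale (SE 0.13, limma adjusted p = 0.018) at 16 h, differed by -0.42 (SE 0.13, limma adjusted p = 0.0335) at 30 h, and changed by -1.02 (SE 0.13, limma adjusted p = 0.000545) between 16 and 30 h. That last fall and the rise from 4 to 16 h, 0.79 (SE 0.13, limma adjusted p = 0.00292), held without each array in turn. The rise against heart-beating donors was lost without heart-beating donor 1 (0.58), heart-beating donor 3 (0.55) or 16 h animal 1 (0.48). The fall at 30 h was lost without heart-beating donor 1 (-0.44), 2 (-0.36) or 3 (-0.47) and without 30 h animal 1 (-0.36) or 2 (-0.41), and with the Gapdh covariate the 30 h estimate was 0.52 (SE 0.41).

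The promoter of Slc25a33 is shown with that of Slc25a25 because they are the 2 carriers whose promoter held a full cAMP response element, TGACGTCA, in capitals.
Slc25a33 chr5:165502974-165503223, strand minus: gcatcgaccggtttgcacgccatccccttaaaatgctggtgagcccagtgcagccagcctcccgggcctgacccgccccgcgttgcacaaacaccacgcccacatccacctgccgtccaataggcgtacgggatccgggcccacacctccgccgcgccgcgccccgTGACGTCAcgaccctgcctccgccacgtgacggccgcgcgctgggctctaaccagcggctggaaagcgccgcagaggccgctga
Slc25a25 chr3:36116582-36116831, strand minus: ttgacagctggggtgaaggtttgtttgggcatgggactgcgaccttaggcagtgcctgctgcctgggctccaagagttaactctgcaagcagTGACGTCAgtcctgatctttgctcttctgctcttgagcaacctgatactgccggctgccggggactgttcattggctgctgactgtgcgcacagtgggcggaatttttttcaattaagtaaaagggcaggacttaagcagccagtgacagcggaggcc
The motif reads the same on both strands and was found in 2 of 31 carrier promoters, or 6.45%, against 1.59% of the 33469 rat promoters. It begins 84 bases before the start of Slc25a33 and 158 before that of Slc25a25. Slc25a33 also holds the E-box CACGTG, found in 6.45% of carrier promoters and 5.59% of all. The motif of nuclear respiratory factor NRF1 was found in 0 of the 31 and in 3.75% of all promoters, AAGGTCA, an element bound by estrogen-related receptors, in 3.23% and 3.99%, and CCAAT in 54.8% and 34%. A match describes these letters in this window and nothing more.

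Slc25a16, linked to coenzyme A transport, gave 8.60, 8.29 and 8.40 in the heart-beating donors, 8.17, 8.29 and 8.33 at 4 h, 8.79, 8.73 and 8.85 at 16 h and 8.67, 9.06 and 8.62 at 30 h. The 16 and 30 h arrays were above all earlier arrays. It rose by 0.53 (SE 0.11, limma adjusted p = 0.0125) from 4 to 16 h, a call lost without 4 h animal 1 (0.48), and by 0.35 (SE 0.11, limma adjusted p = 0.0409) from the heart-beating donors to 30 h. The latter was lost without heart-beating donor 2 (0.28), heart-beating donor 3 (0.34) or 30 h animal 2 (0.21), and, at an unmoved 0.35, without 4 h animal 2 or 3 or 16 h animal 1, 2 or 3.

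Slc25a42, a coenzyme A carrier, gave 8.29, 8.26 and 8.30 in the heart-beating donors, 8.26, 8.20 and 8.12 at 4 h, 8.52, 8.69 and 8.54 at 16 h and 8.30, 8.39 and 8.55 at 30 h. The 16 h arrays were above all 6 earlier arrays. It rose by 0.30 (SE 0.076, limma adjusted p = 0.0416) at 16 h against heart-beating donors and by 0.39 (SE 0.076, limma adjusted p = 0.00843) against 4 h, and its 30 h difference was 0.13 (SE 0.076, limma adjusted p = 0.261). The call against heart-beating donors was lost without heart-beating donor 1 (0.30), 2 (0.29) or 3 (0.31), without 4 h animal 1, 2 or 3 (0.30 each) and without 16 h animal 1 (0.33), 2 (0.25) or 3 (0.32).

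Slc25a39, the glutathione carrier, had a bright probe set (1375146_at) with 9.72, 9.71 and 9.73 in the heart-beating donors, 9.74, 9.79 and 9.74 at 4 h, 9.73, 9.79 and 9.66 at 16 h and 9.62, 9.66 and 9.73 at 30 h. The 4 h arrays lay just above the heart-beating ones and above those at 30 h, the 30 h and heart-beating arrays overlapped, and the 30 h difference was -0.055 (SE 0.059, limma adjusted p = 0.574). The dimmer probe set (1381765_at) gave 6.61, 6.68 and 6.82 in the heart-beating donors, 6.60, 6.66 and 6.69 at 4 h, 6.66, 6.41 and 6.63 at 16 h and 6.29, 6.44 and 6.29 at 30 h. Its 30 h arrays were below the heart-beating ones, with a called difference of -0.36 on the log2 scale (SE 0.081, limma adjusted p = 0.00674) that held without each array in turn and was 0.14 (SE 0.28), not called, with the Gapdh covariate. Of the remaining genes, a dim probe set of the folate/FAD carrier Slc25a32 (1382760_at) fell, with a difference of -0.64 (SE 0.16, limma adjusted p = 0.0248) between 16 and 30 h, a call lost without 16 h animal 1 (-0.43), 16 h animal 2 (-0.68) or 30 h animal 1 (-0.60). The other Slc25a32 probe set, Slc25a17 of peroxisomes and the 2 probe sets of Slc25a36 were not called, with 30 h differences from -0.037 to 0.19.

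Both mitoferrins, which bring iron into the matrix, were measured, and Slc25a28 (mitoferrin 2) rose. Its signals were 7.11, 6.99 and 7.20 in the heart-beating donors, 7.07, 7.19 and 7.25 at 4 h, 7.56, 7.29 and 7.26 at 16 h and 7.81, 7.83 and 7.64 at 30 h. No earlier array reached those at 30 h. The rise was 0.66 on the log2 scale (SE 0.092, limma adjusted p = 0.000359), or 1.58-fold higher, and held without each array in turn. From 16 to 30 h it was 0.39 (SE 0.092, limma adjusted p = 0.0183), lost without 16 h animal 2 (0.35), 16 h animal 3 (0.34) or 30 h animal 1 (0.37). With the Gapdh covariate the 30 h estimate kept its direction, at 0.92 (SE 0.35, limma adjusted p = 0.285).

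Slc25a37 (mitoferrin 1), the form that erythroid cells depend on, gave 7.40, 7.50 and 7.30 in the heart-beating donors, 7.56, 7.45 and 7.35 at 4 h, 7.48, 7.59 and 7.36 at 16 h and 7.79, 7.57 and 7.54 at 30 h. Signals at 30 h were just above the heart-beating ones, with a difference of 0.23 (SE 0.088, limma adjusted p = 0.0855) that did not pass the test. Of 7 erythroid genes 4 were called higher at 30 h, where 10.4% of all probe sets were called higher. The mean of the 7 genes was 7.85 to 8.42 against 7.06 to 7.21 in heart-beating donors. Their part in the Slc25a28 and Slc25a37 values was not tested. The within-array difference of Slc25a28 minus Slc25a37 changed by 0.20 at 16 h and by 0.43 at 30 h, again given with no test.

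Of 6 probe sets for the uncoupling-protein-like carriers Slc25a14, Slc25a27 and Slc25a30, none was called by limma against heart-beating donors. Of all probe sets 0.0226%, 4.67% and 19.7% were called at 4, 16 and 30 h. By limma 1 of the 6 had an unadjusted p below 0.05 at 4 h, and 0 did at 16 and at 30 h. The brighter Slc25a30 probe set (1390416_at) gave 9.53, 8.67 and 9.31 in the heart-beating donors, 8.02, 9.52 and 8.62 at 4 h, 9.71, 9.57 and 10.16 at 16 h and 9.48, 9.32 and 9.48 at 30 h. The 3 arrays at 16 h were above all others, and the 4 h arrays spread from 8.02 to 9.52. It rose by 1.09 (SE 0.30, limma adjusted p = 0.0458) from 4 to 16 h. The call was lost without heart-beating donor 3, 30 h animal 2 or 30 h animal 3 (1.09 each), 4 h animal 1 (0.74), 4 h animal 3 (1.04), 16 h animal 1 (1.14), 2 (1.21) or 3 (0.92). Slc25a14 gave 5.83, 5.93 and 5.98 in the heart-beating donors, 5.85, 5.88 and 5.89 at 4 h, 6.16, 6.06 and 5.95 at 16 h and 5.80, 5.97 and 5.82 at 30 h, and the brightest Slc25a27 probe set gave 5.05, 4.86 and 5.03 in the heart-beating donors, 4.92, 4.98 and 5.07 at 4 h, 4.99, 5.01 and 5.06 at 16 h and 4.97, 4.94 and 5.08 at 30 h. Both overlapped between heart-beating donors and 30 h, with differences of -0.051 and 0.013.

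The members grouped here under no settled substrate, a label of the list of roles used, were 7 genes with 9 probe sets. They held the family's largest fall at 30 h against heart-beating donors. At 30 h 2 of the 9 were called lower, beside 9.36% of all probe sets. A dim probe set (1386088_at) of Slc25a46, an outer membrane protein of mitochondrial dynamics, gave 6.42, 6.01 and 6.16 in the heart-beating donors, 6.11, 6.25 and 6.33 at 4 h, 5.97, 5.61 and 5.64 at 16 h and 5.18, 5.10 and 5.26 at 30 h. The 30 h arrays were below all others and the 16 h arrays below the heart-beating ones. Both falls were called, with a difference of -0.46 (SE 0.11, limma adjusted p = 0.0383) at 16 h and of -1.02 on the log2 scale (SE 0.11, limma adjusted p = 7.67e-05), or 2.02-fold lower, at 30 h. The 30 h call held without each array in turn, and that at 16 h was lost without heart-beating donor 1 (-0.35), heart-beating donor 3 (-0.48), 4 h animal 2 (-0.46), 16 h animal 2 (-0.40) or 16 h animal 3 (-0.41). Against 4 h the difference at 16 h was -0.49 (SE 0.11, limma adjusted p = 0.0199), lost without 4 h animal 2 (-0.48), 4 h animal 3 (-0.44), 16 h animal 2 (-0.43) or 16 h animal 3 (-0.44). The brighter Slc25a46 probe set (1382150_at) gave 8.65, 8.38 and 8.53 in the heart-beating donors, 8.38, 8.54 and 8.49 at 4 h, 8.80, 8.68 and 8.42 at 16 h and 8.64, 8.87 and 8.70 at 30 h. Its 30 h arrays overlapped the heart-beating ones and lay above those at 4 h, and it lay the other way, with a 30 h difference of 0.22 (SE 0.10, limma adjusted p = 0.169).

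Slc25a51l1, named after the NAD carrier Slc25a51, gave 5.24, 5.78 and 5.44 in the heart-beating donors, 5.47, 5.48 and 5.62 at 4 h, 5.41, 5.07 and 5.32 at 16 h and 4.71, 5.07 and 4.80 at 30 h. The 30 h arrays were below the heart-beating ones, and the difference was -0.63 on the log2 scale (SE 0.13, limma adjusted p = 0.00534), or 1.55-fold lower, which held without each array in turn and was 0.17 (SE 0.47) with the Gapdh covariate. Slc25a45 gave 8.66, 8.24 and 8.37 in the heart-beating donors, 8.25, 8.39 and 7.95 at 4 h, 7.65, 8.10 and 8.02 at 16 h and 8.38, 8.47 and 8.69 at 30 h. Its 16 h arrays were below the heart-beating ones, with a difference of -0.50 (SE 0.14, limma adjusted p = 0.0691), and it rose by 0.59 (SE 0.14, limma adjusted p = 0.0216) between 16 and 30 h, a call lost without 16 h animal 1 (0.46) or 30 h animal 3 (0.50). The brighter Slc25a48 probe set (1389678_at) fell, with a difference of -0.38 (SE 0.085, limma adjusted p = 0.0152) from 4 to 16 h, a call lost without 4 h animal 3 (-0.31), 16 h animal 1 (-0.35) or 16 h animal 2 (-0.39). Slc25a34 gave 4.93, 5.15 and 5.01 in the heart-beating donors, 5.10, 5.04 and 5.13 at 4 h, 5.02, 5.02 and 5.06 at 16 h and 5.13, 5.11 and 5.12 at 30 h, with a 30 h difference of 0.090 (SE 0.065, limma adjusted p = 0.379). Slc25a35 and Slc25a53 were called in none of the 5 comparisons.

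Between successive times, 7 members were called from 4 to 16 h, 14.3% against 7.82% of all probe sets, with 5 higher (5.31% of all) and 2 lower (2.52% of all), and 19, or 38.8% against 32.5%, did not overlap. From 16 to 30 h 9 were called, 18.4% against 10.2%, with 3 higher (4.29% of all) and 6 lower (5.95% of all), and 21, or 42.9% against 26.6%, did not overlap. A further quantile normalization gave 3 higher and 2 lower from 4 to 16 h, and 4 higher and 5 lower from 16 to 30 h. After that step 7.53% and 11.2% of all probe sets were called. Among the upper 50% of probe sets by mean signal, 5 of 33 members were called from 4 to 16 h, against 14.9% of all. From 16 to 30 h 7 of 33 were called there, against 18.5%. Over the 49 members the count from 4 to 16 h was 4 without 4 h animal 3 (5.22% of all) or 16 h animal 2 (3.48%). That from 16 to 30 h was 5 without 16 h animal 1 (4.08% of all) and 6 without 16 h animal 2 (6.91%).

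Where a gene had 2 probe sets with a mean log2 signal of at least 6, the difference between them was tested within arrays. At 30 h it had changed for 4 of 4 such carriers, against 52.9% of 1730 genes, and at 16 h limma called 0 of 4 against 22.3%, with 1 at an unadjusted p below 0.05. At an adjusted p below 0.05 the brighter minus the dimmer probe set changed at 30 h by -0.42 for Slc25a10 (SE 0.13, limma adjusted p = 0.0129), by 1.19 for Slc25a23 (SE 0.12, limma adjusted p = 4.56e-07), by 0.31 for Slc25a39 (SE 0.11, limma adjusted p = 0.0234) and by 0.34 for Slc25a44 (SE 0.12, limma adjusted p = 0.0204). Probe sets of the same gene therefore did not move alike at 30 h, in these carriers as in many other genes. The count was 2 without 30 h animal 2, which lost Slc25a10 (limma adjusted p = 0.0504) and Slc25a44 (limma adjusted p = 0.0823). Slc25a39 was lost without heart-beating donor 3 (limma adjusted p = 0.101) or 30 h animal 3 (0.0814). Slc25a10 was lost without heart-beating donor 1 (0.0712) and Slc25a44 without donor 2 (0.138). With no minimum signal Slc25a30 and Slc25a46 were also called at 30 h. Slc25a27, Slc25a32, Slc25a36 and Slc25a48 were not, with limma adjusted p from 0.0839 to 0.757. Where along its transcript each probe set lies was not tested.

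**Figure D4:**
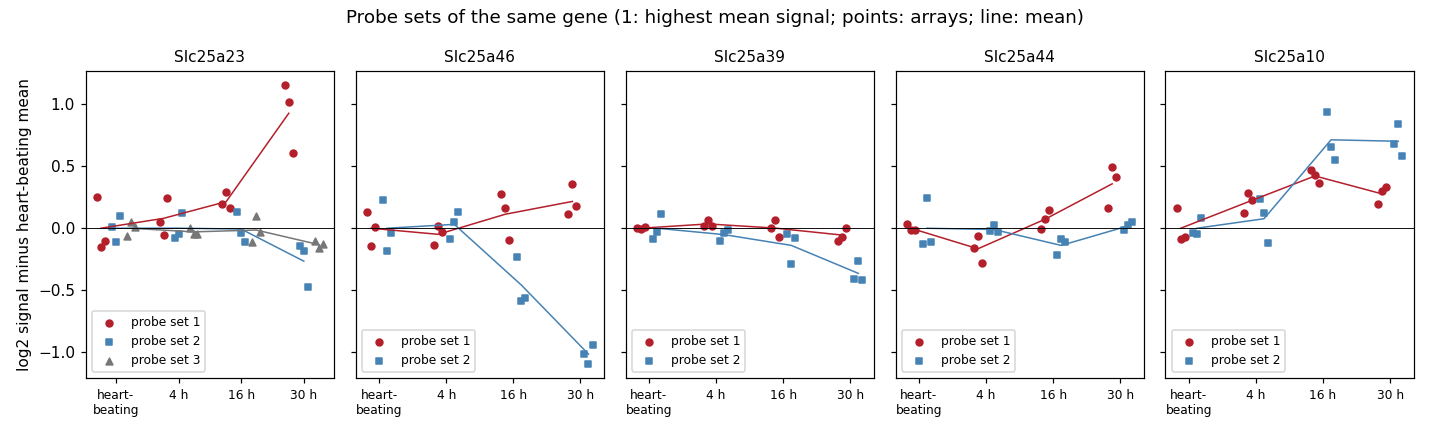
Log2 signal minus the heart-beating mean (y axis) of the probe sets of genes whose probe sets disagree, by group (x axis), with points for arrays and lines for group means. In Slc25a23 and Slc25a46 the probe sets part at 30 h, with 0.93 for the brightest Slc25a23 probe set and -1.02 for the dimmer Slc25a46 probe set.

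Other transport genes of mitochondria, each measured by its brightest probe set, also moved both ways at 30 h. The counts below stand beside 23.3% of 14217 genes called at 30 h with 1 probe set per gene and 19.7% of all probe sets. Of 5 Ucp and Mtch genes of the same carrier family 1 was called, the uncoupling protein Ucp2, at 0.49 (SE 0.12, limma adjusted p = 0.0115). Of 15 other inner membrane transporters 3 were higher and 2 lower. They included Mpc2 of the mitochondrial pyruvate carrier at -1.04 (SE 0.15, limma adjusted p = 0.000516), Smdt1, a part of the calcium uniporter, at -0.64 (SE 0.10, limma adjusted p = 0.000842), its pore Mcu at 0.54 (SE 0.10, limma adjusted p = 0.00251), and the sideroflexin Sfxn5 at 0.90 (SE 0.12, limma adjusted p = 0.000188). The remaining one, named after its values were seen, was the ABC transporter Abcb10 at 0.37 (SE 0.11, limma adjusted p = 0.0338). Of 4 outer membrane pore genes the porin Vdac1 was higher, at 0.42 (SE 0.062, limma adjusted p = 0.000503), and Vdac2 and Vdac3 were lower, at -0.64 (SE 0.11, limma adjusted p = 0.0016) and -0.57 (SE 0.12, limma adjusted p = 0.00539).

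The import machinery that places carriers in the inner membrane had 2 genes higher and 4 lower of 16 at 30 h, against 10.4% and 9.36% of all probe sets. With 1 probe set per gene, as for these 16, 23.3% of genes were called in either direction. Of those called lower, Timm8a1, a chaperone of the intermembrane space, was at -0.83 (SE 0.14, limma adjusted p = 0.00138), Tomm6 and Tomm20 of the outer membrane translocase were at -0.65 (SE 0.11, limma adjusted p = 0.00142) and -0.55 (SE 0.13, limma adjusted p = 0.00804), and Timm22, the channel of the carrier translocase, was at -0.35 (SE 0.089, limma adjusted p = 0.0145). The 2 called higher, named after their values were seen, were the chaperone Timm9 at 0.52 (SE 0.14, limma adjusted p = 0.0229) and Tomm40, the pore of the outer membrane translocase, at 0.37 (SE 0.12, limma adjusted p = 0.0479). The median of the 16 was -0.22, against 0.0082 over all probe sets and 0.0064 with 1 probe set per gene.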

How the data were processed

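RNA of 12 arrays, 3 a group, was measured on Affymetrix rat arrays. The deposited log2 values were made by the authors with RMA, and limma is also named, per the submitters' processing notes; no versions are stated there. The table held 31099 probe sets, 57 of them controls, with values from 2.99 to 14.51 and array medians from 5.83 to 5.90. In the platform annotation 20826 probe sets had 1 gene symbol, 436 several and 9780 none. All 49 member gene IDs matched RefSeq.

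From these values limma 3.58.1 in R 4.3.3 fitted 1 mean per group over all 12 arrays for 31042 probe sets (lmFit, eBayes; 8 residual and 4.93 prior degrees of freedom), for 5 comparisons, with Benjamini-Hochberg adjustment over all and calls at an adjusted p below 0.05. No filter on low values was used, so all 49 members were tested; 33 lay above the median probe set and 16 below it. Differences between probe sets of a gene were fitted the same way. The fits were tested on simulated data. Comparisons that share the heart-beating, 4 h or 16 h arrays are not independent of each other. The number of arrays limits precision, and p-values measure the spread between the labelled biological replicates.

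Values in every array are given for 13 preset genes where measured, except that Slc25a51 has only those of heart-beating donors and 30 h. They are also given for up to 3 further genes of each role group by smallest p at 30 h. Genes whose probe sets differ in call at 30 h against heart-beating donors have them for 1 or more probe sets. The other called genes of the family were added after their values were seen, with Slc25a32 and Slc25a48 given by differences only. The members, role groups and lists were chosen with earlier results of these data known. Promoters came from a RefSeq table of build GRCr8; 31 of 37 genes matched, and for Slc25a48 the first of 2 entries was used. Alternatives were other scalings, a filter on dim probe sets, 1 probe set per gene, other variance models, array weights, fewer groups, a replicate block, a Gapdh covariate and leaving out each array.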

Additional observations from a re-analysis of the deposited data

Results flagged for a closer look

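For 9 Slc25 probe sets the difference from the heart-beating donors at 30 h was not the same as that at 16 h, by the limma test of 30 h against 16 h at an adjusted p below 0.05. Both differences share the heart-beating arrays, which cancel in this test. The 30 h difference minus the 16 h difference was -1.02 for Slc25a33, -0.64 for Slc25a32 (1382760_at), -0.56 for Slc25a46 (1386088_at), -0.53 for Slc25a11, -0.51 for Slc25a5 and -0.45 for Slc25a3. It was 0.71 for Slc25a23 (1379073_at), 0.59 for Slc25a45 and 0.39 for Slc25a28. The sign of the difference from heart-beating donors turned for Slc25a33, from 0.60 at 16 h to -0.42 at 30 h, for Slc25a32, from 0.30 to -0.34, and for Slc25a45, from -0.50 to 0.089. Of these 6 values only those of Slc25a33 were called.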

How the results depend on the processing

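The Gapdh 3′ minus 5′ covariate moved most results: calls went from 5 to 0 at 16 h, from 13 to 0 at 30 h, from 7 to 3 between 4 and 16 h, from 9 to 0 between 16 and 30 h and, for differences between probe sets at 30 h, from 4 to 0. Over all 31042 probe sets the covariate fit called 70 at 16 h, 0 at 30 h, 1302 between 4 and 16 h and 8 between 16 and 30 h. By limma with the covariate, 12, 4 and 3 members had an unadjusted p below 0.05 at 16 h, at 30 h and between 16 and 30 h, where 0 were called. Of all 31042 probe sets 6705, 4438 and 3138 did. In that fit the 30 h difference turned to 0.27 for Slc25a11, 0.39 for Slc25a3, 0.52 for Slc25a33, -0.10 for Slc25a23, 0.14 for Slc25a39, 0.64 for Slc25a5 and 0.17 for Slc25a51l1, and that between 16 and 30 h to 0.022 for Slc25a11, 0.10 for Slc25a3 and 0.30 for Slc25a5. The cause was not tested. Calls were also lost under other scalings and models. At 16 h Slc25a42 was lost with cyclic loess, further quantile normalization, a robust variance model or the replicate block. Slc25a46 (1386088_at) was lost at 16 h with each array centred on its median or with cyclic loess. At 30 h Slc25a16 was lost with median centring or the block, and Slc25a33 with array weights or the block. At 16 h the count was 3 of 33 members among the upper 50% of probe sets, against 9.72% of all. It was 3 of 37 with 1 probe set per gene, against 5.94%, and 9 of 49 with array weights, against 11.7%. For differences between probe sets at 16 h 0 became 2 with no minimum signal and 1 with array weights. The quantile step lost Slc25a42 and Slc25a30 from 4 to 16 h and Slc25a5 from 16 to 30 h. A fit of only the groups compared lost Slc25a46 (1386088_at) at 16 h, and Slc25a10 (1370020_at) and Slc25a16 at 30 h. It also lost Slc25a30 from 4 to 16 h, and Slc25a3, Slc25a5, Slc25a28 and Slc25a32 from 16 to 30 h. Leaving out 1 array gave 0 to 0 calls at 4 h, 1 to 6 at 16 h, 10 to 13 at 30 h, 4 to 8 between 4 and 16 h, 5 to 13 between 16 and 30 h, 0 to 0 for differences between probe sets at 16 h and 2 to 4 at 30 h. Replicate numbers did not pair the arrays: same-numbered arrays had correlations of deviations from -0.272 to 0.112, and 1 of 12 matched its own number best. With the replicate number as a block 0, 4, 11, 6 and 9 members were called in the 5 comparisons. Of all probe sets 0.00644%, 3.78%, 18.1%, 6.8% and 8.71% were called in that fit.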

Other observations

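For Slc25a51, the mitochondrial NAD carrier, the 2 probe sets carry 2 gene IDs each and are outside the family's counts. The first (1379456_at) gave 8.28, 8.71 and 8.44 in heart-beating donors and 8.42, 8.46 and 8.49 at 30 h, a difference of -0.022 (SE 0.10, limma adjusted p = 0.915). The other (1386478_at) gave 7.55, 8.03 and 7.76 in heart-beating donors and 8.28, 8.59 and 8.13 at 30 h. Its 30 h arrays lay above the heart-beating ones, with a rise of 0.56 (SE 0.13, limma adjusted p = 0.00838). At 16 h its difference was 0.41 (SE 0.13, limma adjusted p = 0.0943).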
